A study of Mus musculus with 8 samples.

Results

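The genes described here are 8 Toll-like receptors, *Tlr1*, *Tlr2*, *Tlr3*, *Tlr6*, *Tlr7*, *Tlr8*, *Tlr9* and *Tlr13*, together with *Unc93b1*, the chaperone that carries the intracellular members of the family. They were picked by symbol, 9 of the 24539 genes in the count table, and all 9 passed the filter on low counts that left 11501 genes to test. The data are RNA sequencing libraries of bone marrow-derived macrophages (BMDMs), which are macrophages grown from bone marrow progenitors, here for 7 days in L929 cell-conditioned medium and then overnight in M-CSF. The groups were *Tut7*-/- BMDMs with LPS, *Tut7*-/- BMDMs without treatment, wild-type BMDMs with LPS and wild-type BMDMs without treatment, with 2 libraries each. All mice were C57BL/6 males of 7 weeks. LPS, the cell wall component of Gram-negative bacteria that activates *Tlr4*, was given at 100 ng/ml for 4 h. The *Tut7*-/- mice lack a terminal uridyltransferase, an enzyme that adds uridines to the 3′ ends of RNA, in the whole animal after CRISPR/Cas9 cutting with guides to introns 1 and 26. Whether both libraries of a group stem from different mice or cultures is not stated in the labels, and the p-values thus measure nothing but the spread between libraries, possibly a technical one.

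Toll-like receptors are membrane proteins with a leucine-rich ectodomain that binds microbial molecules and a cytoplasmic TIR domain that recruits adaptors. *Tlr2* works at the cell surface as a heterodimer, with *Tlr1* for triacylated and with *Tlr6* for diacylated bacterial lipopeptides. *Tlr3* binds double-stranded RNA and signals through the adaptor Trif, while *Tlr7*, *Tlr8*, *Tlr9* and *Tlr13* signal through MyD88. *Tlr7* recognizes single-stranded RNA, *Tlr9* recognizes DNA with unmethylated CpG, and *Tlr13*, which mice have and humans lack, recognizes a stretch of bacterial ribosomal RNA. Human TLR8 senses RNA degradation products, and the mouse protein responds poorly to many of the same ligands. These nucleic acid sensors leave the endoplasmic reticulum only when bound by Unc93b1, and they are cut by proteases in the endolysosome before they signal.

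Promoter windows from 250 bases before to 50 bases after an annotated start were available for 7 of the 9 genes, in 9 windows, from RefSeq on GRCm38.p6. They were searched on both strands for 6 motifs of factors known in macrophage activation. Those below are the windows with a match to NF-κB or to the interferon-stimulated element, of *Tlr2*, *Tlr3* and *Tlr6*, which rose with LPS, and the window of *Tlr13*, the receptor that fell. Capitals mark matches to the NF-κB motif or to the interferon-stimulated response element (ISRE, which is GAAA, any 2 bases and GAAA).
*Tlr2*, chr3:83841559-83841858, minus strand: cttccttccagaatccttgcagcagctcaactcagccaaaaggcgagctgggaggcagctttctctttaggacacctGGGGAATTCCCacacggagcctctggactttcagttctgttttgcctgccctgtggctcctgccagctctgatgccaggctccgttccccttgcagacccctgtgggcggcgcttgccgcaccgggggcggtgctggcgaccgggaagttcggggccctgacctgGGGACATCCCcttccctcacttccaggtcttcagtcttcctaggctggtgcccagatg
*Tlr3*, chr8:45410331-45410630, minus strand: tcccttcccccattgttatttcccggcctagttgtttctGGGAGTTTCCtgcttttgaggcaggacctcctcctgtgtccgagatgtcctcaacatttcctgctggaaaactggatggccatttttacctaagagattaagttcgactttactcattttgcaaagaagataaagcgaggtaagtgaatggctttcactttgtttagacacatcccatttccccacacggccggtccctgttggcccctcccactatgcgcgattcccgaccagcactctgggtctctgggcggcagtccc
*Tlr6*, chr5:64959117-64959416, minus strand: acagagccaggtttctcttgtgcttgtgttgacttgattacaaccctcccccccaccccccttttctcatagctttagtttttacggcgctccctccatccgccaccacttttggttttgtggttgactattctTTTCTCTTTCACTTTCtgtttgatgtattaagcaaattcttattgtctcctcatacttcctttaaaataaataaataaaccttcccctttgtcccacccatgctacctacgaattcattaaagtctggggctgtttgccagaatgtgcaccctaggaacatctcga
*Tlr13*, chrX:106143025-106143324, plus strand: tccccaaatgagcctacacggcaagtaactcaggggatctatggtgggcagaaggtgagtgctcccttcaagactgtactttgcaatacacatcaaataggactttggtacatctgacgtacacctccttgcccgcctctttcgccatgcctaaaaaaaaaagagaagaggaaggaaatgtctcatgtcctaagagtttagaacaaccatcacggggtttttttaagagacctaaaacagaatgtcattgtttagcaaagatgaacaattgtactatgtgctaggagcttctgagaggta
In *Tlr2* the NF-κB matches began at positions -173, -172 and -8 from the start, and the first 2 overlap in one run. In *Tlr3* there was 1 match, at -211. The NF-κB motif was present in 4.51% of 32851 mouse promoter windows of the same length and in 2 of the 7 genes. *Tlr6* carried 2 overlapping ISRE matches on the opposite strand, at -116 and -110, a motif found in 3.44% of windows and in 1 of the 7 genes. The window of the other annotated *Tlr6* start lacked it. Both windows of *Tlr1* and the window of *Tlr8*, genes which also rose, held neither motif. The *Tlr13* window held neither. Its matches were to the ETS motif GAGGAA and the C/EBP motif TTGCNNAA, found in 28.3% and 10.8% of windows. Each of these motifs was matched in 4 of the 7 genes, receptors that rose among them. The AP-1 motif TGANTCA was matched in *Tlr9* alone of the 7 genes, and in 7.81% of windows. The GAS motif TTCNNNGAA was matched in 3 of the 7 genes, *Tlr1*, *Tlr6* and *Tlr8*, and in 8.3% of windows. A match describes the letters and is not evidence of a bound factor.

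The libraries held 3767900 to 9394632 counts. *Tut7*, listed as *Zcchc6*, had 18 and 19 counts in LPS-treated and 17 and 23 in untreated *Tut7*-/- libraries, against 1162 and 716 in LPS-treated and 427 and 615 in untreated wild-type libraries, which fits the labels. The SD of the log2 difference between the 2 libraries of a group was 0.422 for *Tut7*-/- with LPS, 0.646 for untreated *Tut7*-/-, 0.558 for wild-type with LPS and 0.442 for untreated wild-type cells. All 8 macrophage markers were detected in every library. Levels below are CPM, read counts relative to the library's total, with TMM factors applied to correct for differences in RNA composition between libraries. Scaling by library size alone moves the median over all tested genes, in log2, by -0.56 for LPS in *Tut7*-/-, -0.83 for LPS in wild-type and -0.29 for untreated genotype, so that small fold changes depend on it.

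Per transcript length, *Unc93b1* was the most abundant of the 9 genes in every group. Its RPKM, read counts scaled by transcript length and by sequencing depth without TMM, averaged 351 ± 25.4 in LPS-treated and 672 ± 37.8 in untreated *Tut7*-/- BMDMs, and 334 ± 23.1 in LPS-treated and 529 ± 15.5 in untreated wild-type BMDMs (SD, n = 2 each). Among the receptors after LPS, *Tlr2* came first in both genotypes, with 251 RPKM in *Tut7*-/- and 306 in wild-type cells. It was followed by *Tlr1* (63.5 in *Tut7*-/-, 80.2 in wild-type), *Tlr7* (57.6 in *Tut7*-/-, 67.0 in wild-type), *Tlr3* (51.9 in *Tut7*-/-, 63.1 in wild-type) and *Tlr8* (42.1 in *Tut7*-/-, 46.2 in wild-type). *Tlr6* (17.1 in *Tut7*-/-, 15.8 in wild-type) and *Tlr9* (16.8 in *Tut7*-/-, 14.9 in wild-type) could not be ordered, since their libraries overlapped, and *Tlr13* was last (9.49 in *Tut7*-/-, 7.43 in wild-type). In LPS-treated *Tut7*-/- cells the libraries of *Tlr1*, *Tlr7*, *Tlr3* and *Tlr8* also overlapped from each gene to the next, as did those of *Tlr7* and *Tlr3* in LPS-treated wild-type cells.

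Before treatment the order was another one. In untreated *Tut7*-/- BMDMs *Tlr2* led the receptors with 42.5 RPKM, followed by *Tlr9* (29.2) and *Tlr13* (27.3), whose libraries overlapped, and then by *Tlr8* (15.3), by *Tlr1* (12.4) and *Tlr7* (10.6), which overlapped as well, and by *Tlr6* (2.7) and *Tlr3* (0.902). In untreated wild-type BMDMs *Tlr13* led with 65.5 RPKM, then *Tlr2* (55.5), *Tlr8* (37.2), *Tlr7* (29.6), *Tlr9* (22.6), *Tlr1* (19.8), *Tlr6* (4.42) and *Tlr3* (2.63). The position of *Tlr9* there was not fixed, because its 2 libraries, at 12.6 and 32.7 RPKM, spanned both neighbours. *Tlr3*, the double-stranded RNA receptor, was thus the least abundant member before LPS and among the middle ones after it.

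The make-up of the receptor transcripts followed from this. A share within a library does not depend on the scaling between libraries, but these shares are not corrected for GC content. *Tlr13* took 1.88% and 1.84% of the summed RPKM of the 8 receptors in LPS-treated and 17.3% and 21.0% in untreated *Tut7*-/- libraries. In wild-type libraries its share was 1.17% and 1.31% with LPS and 29.8% and 25.7% without. *Tlr2* took 47.2% and 51.6% with LPS and 33.5% and 27.4% without in *Tut7*-/- libraries, and 50.6% and 51.3% with LPS and 23.1% and 23.7% without in wild-type libraries. In wild-type cells *Tlr13* held the top share without LPS and the smallest share with LPS, and for both genes LPS-treated and untreated libraries did not overlap. The shares are a description, with no test. *Unc93b1* relative to the summed RPKM of the 5 nucleic acid sensors was 1.67 and 2.36 in LPS-treated and 9.91 and 6.71 in untreated *Tut7*-/- libraries. In wild-type libraries that ratio was 1.56 and 1.81 with LPS and 3.55 and 3.19 without. By RPKM, which is not corrected for GC content, the chaperone transcript was thus in lower excess over its client transcripts after LPS in each genotype. The ratio was not computed with the length and GC correction used below. With that correction *Unc93b1* itself rose with LPS, by a log2 fold change of 0.76 in *Tut7*-/- and 0.69 in wild-type cells. Among its clients *Tlr3*, *Tlr7*, *Tlr8* and *Tlr9* then had positive fold changes in both genotypes and *Tlr13* a negative one.

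**Figure D1:**
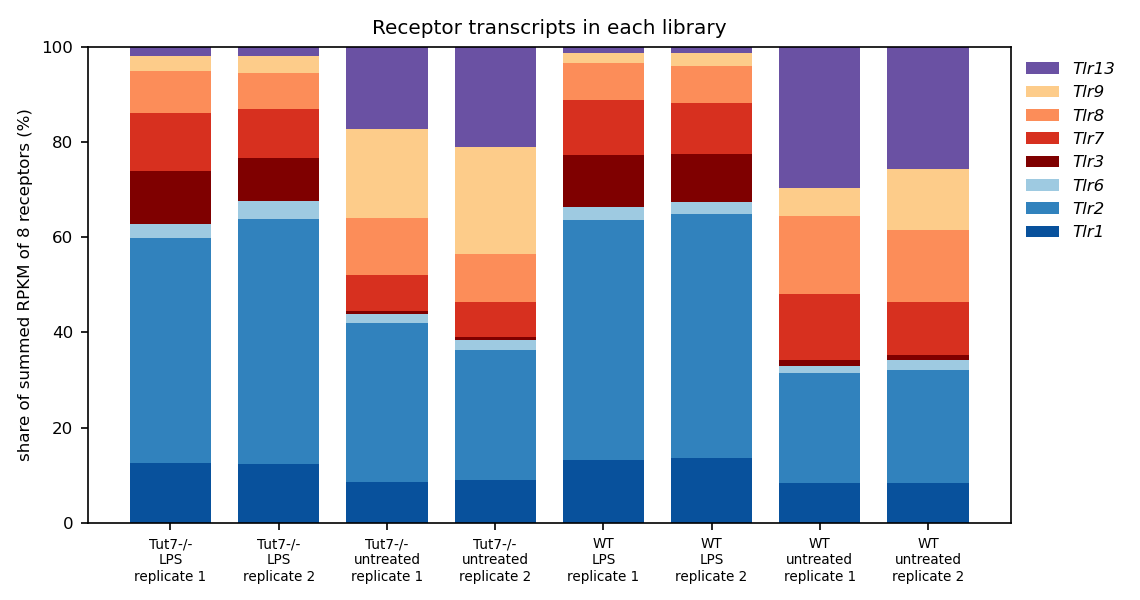
Share (%) of each of 8 Toll-like receptors in their summed RPKM, 1 stacked bar per library. *Tlr13*, at the top of each bar, takes 1.17% to 1.88% of LPS-treated and 17.3% to 29.8% of untreated libraries, while *Tlr2* takes 47.2% to 51.6% of LPS-treated and 23.1% to 33.5% of untreated libraries.

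The first comparison asked how LPS, a *Tlr4* ligand, moved the other receptors in each genotype. *Tlr1*, *Tlr2*, *Tlr6*, *Tlr3*, *Tlr7* and *Tlr8* rose, *Tlr13* fell, and *Tlr9* and *Unc93b1* did not pass the test, in *Tut7*-/- and in wild-type BMDMs alike. Of the 9 genes, 6 were thus higher and 1 lower with LPS in each genotype, where a gene was called when its p from the quasi-likelihood test of edgeR, adjusted by Benjamini-Hochberg over all tested genes, was under 0.05. Over the whole table of 11501 genes, LPS called 34.8% higher and 33.2% lower in *Tut7*-/- BMDMs and 27.0% higher and 30.4% lower in wild-type BMDMs. The median log2 fold change of the 9 genes was 2.89 in *Tut7*-/- and 2.0 in wild-type cells, where that of all tested genes was -0.07 and -0.17. In bulk RNA, fewer cells that express a gene and less RNA per cell cannot be told apart. The LPS comparison of each genotype shares its untreated libraries with the comparison of untreated genotypes, so the 2 are not independent.

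**Figure D2:**
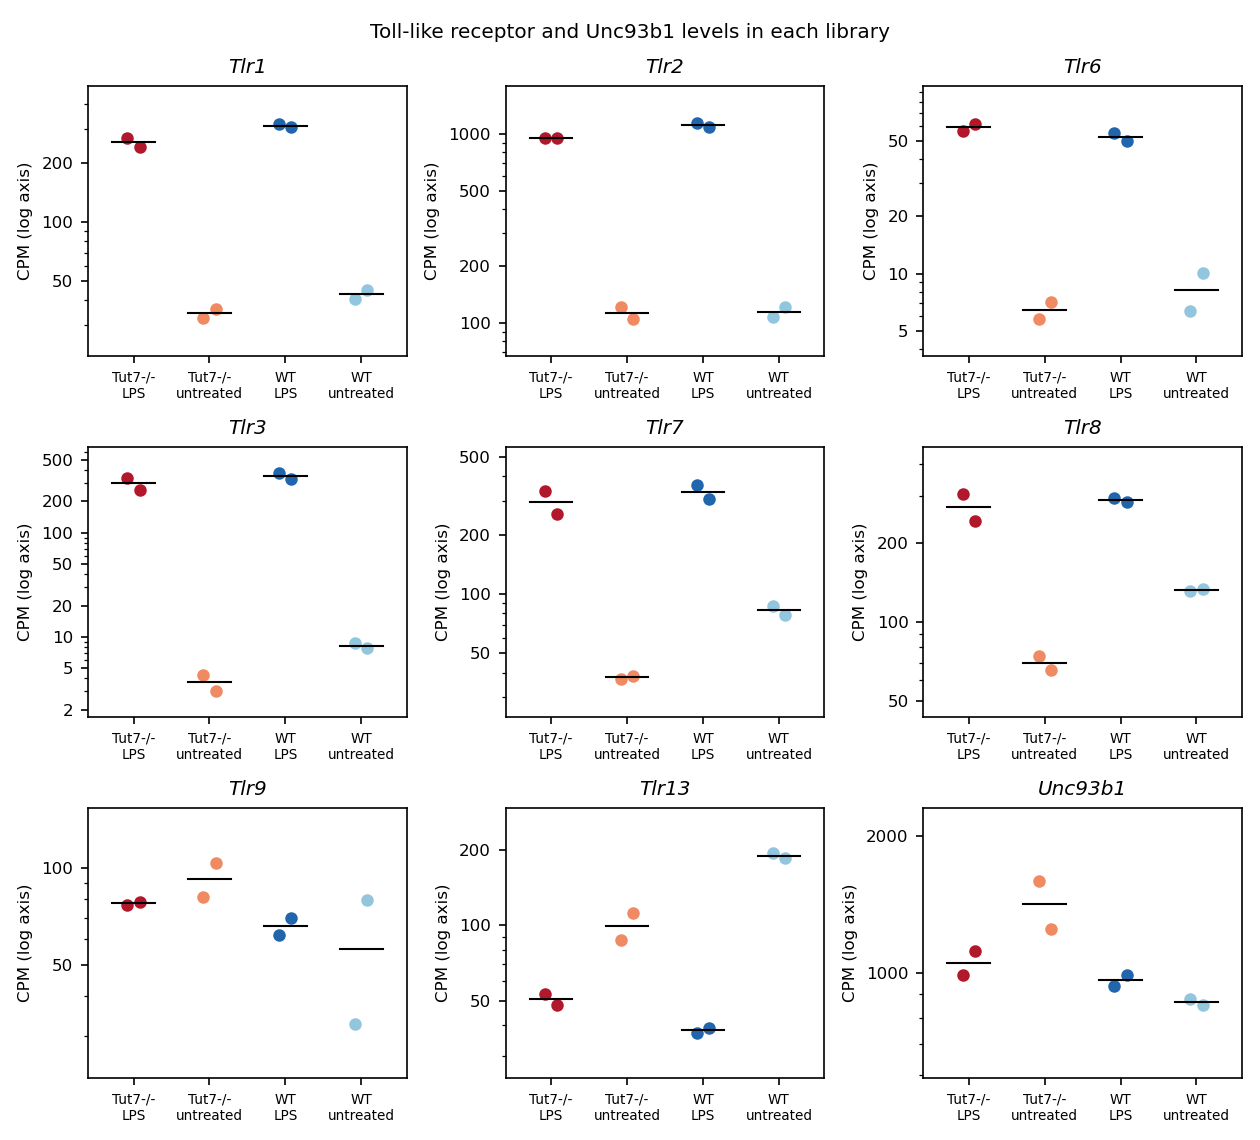
Levels of the 9 genes in each library (CPM, log axis, with its own range in each panel), with a black line at the mean of the 2 libraries of a group. LPS-treated libraries lie above untreated ones for *Tlr1*, *Tlr2*, *Tlr6*, *Tlr3*, *Tlr7* and *Tlr8* and below them for *Tlr13*, and *Tlr3* spans 3.01 to 374 CPM.

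*Tlr2*, the shared partner of the lipopeptide receptors, was at 951 and 955 CPM in LPS-treated and 121 and 105 CPM in untreated *Tut7*-/- libraries. In wild-type libraries it was at 1140 and 1090 CPM with LPS and 107 and 121 CPM without. The groups did not overlap, and the log2 fold change was 3.08 in *Tut7*-/- (SE 0.214, adjusted p = 6.7e-09) and 3.29 in wild-type cells (SE 0.216, adjusted p = 4.2e-09). Its partner *Tlr1* moved by a like amount. It was at 268 and 242 CPM with LPS and 32.6 and 36.3 CPM without in *Tut7*-/- libraries, and at 315 and 305 CPM with LPS and 40.9 and 45.2 CPM without in wild-type libraries. These are log2 fold changes of 2.89 (SE 0.211) in *Tut7*-/- and 2.85 (SE 0.21) in wild-type cells.

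*Tlr6*, the other partner, was the scarcest of the 3 surface receptors, at 56.6 and 61.6 CPM in LPS-treated and 5.78 and 7.09 CPM in untreated *Tut7*-/- libraries. In wild-type libraries it was at 54.8 and 50.1 CPM with LPS and 6.38 and 10.1 CPM without. It rose 9.13-fold in *Tut7*-/- and 6.33-fold in wild-type cells, and the 2 treatments did not overlap in either. *Tlr1* and *Tlr6* are neighbours on chromosome 5 and near copies in part. Of 2951 windows of 75 bases in the longest *Tlr1* transcript, 340 (11.5%) also occur in *Tlr6*, where they make up 9.44% of 3603 windows, so reads from this stretch could be counted for either gene. No other pair of the 9 genes shares such a window.

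*Tlr3* had the largest rise of the 9 genes in both genotypes. It was at 339 and 257 CPM in LPS-treated *Tut7*-/- libraries, against 4.3 and 3.01 CPM in untreated ones. In wild-type libraries it was at 374 and 325 CPM with LPS and 8.69 and 7.8 CPM without. LPS-treated and untreated libraries lay far apart, by 82.2-fold in *Tut7*-/- (log2 fold change 6.36, SE 0.29, adjusted p = 6.8e-11) and 42.4-fold in wild-type cells (5.41, SE 0.27, adjusted p = 2.0e-10). The untreated values rest on 35 and 34 counts in *Tut7*-/- and 79 and 89 counts in wild-type libraries. A transcript on the opposite strand, Gm45542, overlaps 7.32% of the *Tlr3* exon bases, and whether reads were counted by strand is not stated in the study's methods or labels.

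*Tlr7* and *Tlr8*, neighbouring genes on the X chromosome, rose less. *Tlr7* was at 335 and 258 CPM in LPS-treated and 37.1 and 38.5 CPM in untreated *Tut7*-/- libraries, and at 359 and 306 CPM with LPS and 87.5 and 78.4 CPM without in wild-type libraries. Its rise was 7.83-fold in *Tut7*-/- and 4.01-fold in wild-type cells. *Tlr8* was at 306 and 242 CPM with LPS and 74.2 and 65.5 CPM without in *Tut7*-/- libraries, and at 295 and 285 CPM with LPS and 131 and 133 CPM without in wild-type libraries. For both genes the libraries of the 2 genotypes overlapped after LPS and did not overlap without it. The log2 fold change of *Tlr8* was 1.97 in *Tut7*-/- (SE 0.211, adjusted p = 8.3e-07) and 1.14 in wild-type cells (SE 0.206, adjusted p = 2.3e-04). The wild-type call was lost with library-size scaling (0.3, adjusted p = 0.17), with limma on log2(RPKM + 1) (0.31, adjusted p = 0.14) and with a length and GC correction (0.34, adjusted p = 0.067). With that correction the *Tut7*-/- value was 0.37 (adjusted p = 0.048).

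*Tlr13* moved the opposite way. It was at 53.3 and 47.9 CPM in LPS-treated and 87.6 and 112 CPM in untreated *Tut7*-/- libraries. In wild-type libraries it was at 37.2 and 39.0 CPM with LPS and 194 and 186 CPM without. The treatments did not overlap in either genotype, and *Tlr13* was 1.98-fold lower with LPS in *Tut7*-/- (log2 fold change -0.98, SE 0.209, adjusted p = 6.7e-04) and 4.99-fold lower in wild-type cells (-2.32, SE 0.22, adjusted p = 2.8e-07). Both calls held in all 18 alternatives, with log2 fold changes of -2.09 to -0.79 in *Tut7*-/- and -3.15 to -2.19 in wild-type cells.

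*Tlr9*, the CpG DNA receptor, was at 76.9 and 78.5 CPM in LPS-treated and 81.4 and 104 CPM in untreated *Tut7*-/- libraries, and at 62.0 and 69.8 CPM with LPS and 32.7 and 79.3 CPM without in wild-type libraries. The untreated wild-type libraries lay far apart, on both sides of the LPS-treated ones. The log2 fold change was -0.26 in *Tut7*-/- (95% CI -0.91 to 0.4, adjusted p = 0.47) and 0.23 in wild-type cells (95% CI -0.44 to 0.9, adjusted p = 0.55). It was 1.01 (adjusted p = 0.0087) in wild-type cells without untreated wild-type replicate 2 and -0.27 without replicate 1. The length and GC correction gave a rise in both, by 0.72 (adjusted p = 0.048) in *Tut7*-/- and 0.77 (adjusted p = 0.045) in wild-type cells.

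*Unc93b1* was at 993 and 1120 CPM in LPS-treated and 1590 and 1250 CPM in untreated *Tut7*-/- libraries, and at 938 and 994 CPM with LPS and 878 and 853 CPM without in wild-type libraries. Its LPS response did not pass in either genotype, with a log2 fold change of -0.43 in *Tut7*-/- (95% CI -0.86 to 0.01, adjusted p = 0.075) and 0.16 in wild-type cells (95% CI -0.28 to 0.59, adjusted p = 0.52). This gene changed direction with the scaling. With library size alone it was lower with LPS in both genotypes, with log2 fold changes of -0.97 (adjusted p = 3.4e-04) in *Tut7*-/- and -0.67 (adjusted p = 0.0034) in wild-type cells, while the length and GC correction gave 0.76 (adjusted p = 2.2e-05) in *Tut7*-/- and 0.69 (adjusted p = 7.2e-05) in wild-type cells. Without untreated *Tut7*-/- replicate 2 the *Tut7*-/- value was -0.59 (adjusted p = 0.0044).

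**Figure D3:**
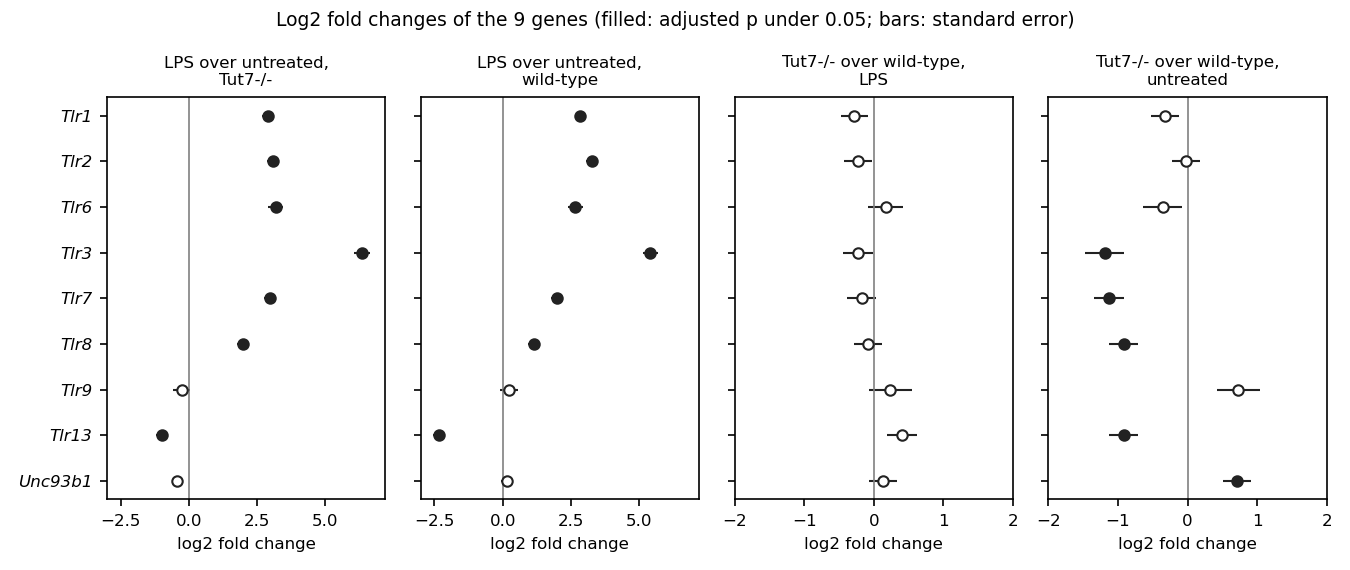
Log2 fold changes of the 9 genes in 4 comparisons, with the standard error as bars and filled circles for an adjusted p under 0.05 (edgeR). The 2 left panels share one axis range and the 2 right panels a narrower one. Between genotypes no circle is filled with LPS, and 5 are filled without treatment.

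The second question was whether the receptor transcripts differed between the genotypes once LPS had been given, and none of the 9 passed. edgeR called 0 of 9 in either direction, DESeq2 0 and limma on log2(RPKM + 1) 0, and 0 had an unadjusted p under 0.05 in edgeR. Among all tested genes 1.4% were called. Log2 fold changes of *Tut7*-/- over wild-type BMDMs ran from -0.28 for *Tlr1* (95% CI -0.7 to 0.13) to 0.41 for *Tlr13* (95% CI -0.05 to 0.87). The intervals of *Tlr2* (-0.65 to 0.19), *Tlr3* (-0.7 to 0.23), *Tlr7* (-0.61 to 0.28), *Tlr8* (-0.51 to 0.35) and *Unc93b1* (-0.3 to 0.56) leave room for differences of those sizes. Both *Tut7*-/- libraries were below both wild-type libraries for *Tlr1* and *Tlr2*, and above both for *Tlr6*, *Tlr9* and *Tlr13*. With 2 libraries a group such an order is no test, and its share among all genes was not counted. Where only the 4 libraries with LPS were fitted, *Tlr1* (-0.37, adjusted p = 0.011) and *Tlr2* (-0.32, adjusted p = 0.01) were called lower in *Tut7*-/- cells, in a fit that called 14.9% of all genes. With the length and GC correction, which called 5.62% of all genes, *Tlr13* was called higher (0.52, adjusted p = 0.049).

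Without LPS the genotypes did differ. *Tlr3*, *Tlr7*, *Tlr8* and *Tlr13*, 4 of the 5 nucleic acid sensors, were lower and *Unc93b1* was higher in untreated *Tut7*-/- than in untreated wild-type BMDMs, while the 3 surface receptors did not pass. Of all tested genes 14.8% were higher and 22.2% lower in this comparison. The log2 fold change was -1.19 for *Tlr3* (SE 0.278, adjusted p = 0.0055), -1.13 for *Tlr7* (SE 0.215, adjusted p = 0.0017), -0.92 for *Tlr8* (SE 0.206, adjusted p = 0.0044) and -0.92 for *Tlr13* (SE 0.205, adjusted p = 0.004). These 4 receptors were about 1.89 to 2.28-fold lower, and their *Tut7*-/- and wild-type libraries, given above, did not overlap. The share of all genes without such overlap was not counted. *Unc93b1* was 1.64-fold higher (0.71, SE 0.204, adjusted p = 0.015).

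Among the genes that did not pass, *Tlr9* was at 0.73 (95% CI 0.07 to 1.38, adjusted p = 0.075), *Tlr1* at -0.32 (95% CI -0.75 to 0.11), *Tlr6* at -0.36 (95% CI -0.96 to 0.24) and *Tlr2* at -0.02 (95% CI -0.45 to 0.4). *Tlr9* depended on untreated wild-type replicate 2, without which it was at 1.51 (adjusted p = 0.0046). The call of *Unc93b1* was the least stable of the 5. It was lost without untreated wild-type replicate 1 (0.73, adjusted p = 0.062) or replicate 2 (0.69, adjusted p = 0.062), with library-size scaling (0.4, adjusted p = 0.084), with limma (0.34, adjusted p = 0.12) and in the fit of the 4 untreated libraries (0.7, adjusted p = 0.14).

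These untreated differences moved with the base composition of the transcripts. The 4 receptors that were lower had the lowest GC content of the 9 genes in their longest GENCODE transcript, with 40.0% for *Tlr3*, 40.1% for *Tlr8*, 41.0% for *Tlr7* and 43.6% for *Tlr13*. *Tlr1* (45.1%), *Tlr6* (45.6%) and *Tlr2* (49.3%) lay between, and *Tlr9* (56.2%) and *Unc93b1* (57.3%), the 2 with a positive fold change, had the highest. The median of the tested genes was 49.6%, with quartiles of 44.7% and 54.3%. Across 11430 genes with a value, which are not independent replicates and share the same 4 libraries, Pearson's r of the untreated genotype log2 fold change with GC content was 0.62. The same correlation was 0.15 with LPS between genotypes, -0.41 for the LPS response in *Tut7*-/-, -0.21 for that in wild-type cells and -0.48 for the difference of the 2 responses.

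Correcting each library for the length and GC content of the transcripts, an alternative added after the data were seen, left none of the 9 genes called between the untreated genotypes, while 22.5% of all genes still were. The correction removes any difference between libraries that follows GC content or length, whatever its source. The log2 fold changes became -0.21 for *Tlr3*, -0.22 for *Tlr7*, 0.16 for *Tlr8*, -0.18 for *Tlr13* and -0.05 for *Unc93b1*, with adjusted p between 0.27 and 0.79. It kept the LPS calls of *Tlr1*, *Tlr2*, *Tlr6*, *Tlr3*, *Tlr7* and *Tlr13* in both genotypes, with *Tlr3* at 4.88 in *Tut7*-/- and 4.65 in wild-type cells and *Tlr7* at 1.58 in *Tut7*-/- and 1.33 in wild-type cells.

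**Figure D4:**
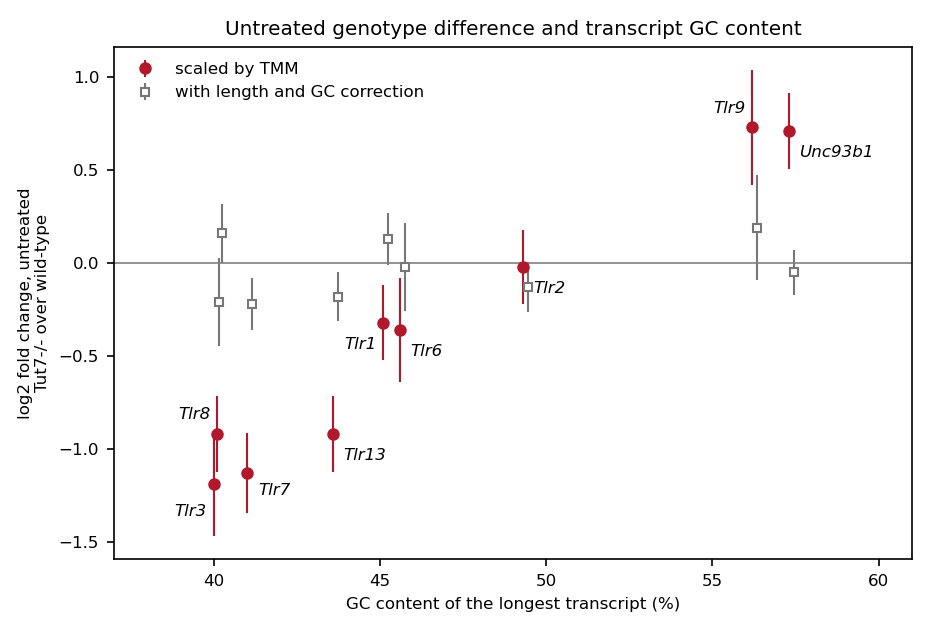
Log2 fold change of untreated *Tut7*-/- over untreated wild-type BMDMs against the GC content (%) of each gene's longest transcript, as scaled by TMM (filled circles) and with the length and GC correction (open squares, shifted slightly to the right), bars showing the standard error. The circles run from -1.19 at 40.0% GC (*Tlr3*) to 0.71 at 57.3% GC (*Unc93b1*), and the squares lie between -0.22 and 0.19.

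The last comparison asked whether the LPS response itself differed between the genotypes, and *Tlr13* was the single gene of the 9 called. Its fall was smaller in *Tut7*-/- than in wild-type cells, by 1.33 on the log2 scale (95% CI 0.7 to 1.97, SE 0.298, adjusted p = 0.025). Of all tested genes 4.06% were called with a higher response in *Tut7*-/- cells. The genotype difference of *Tlr13* with LPS did not pass (0.41, adjusted p = 0.46 by edgeR). Without LPS it was -0.92, and -0.18 (adjusted p = 0.34) with the length and GC correction. Only in mean level did the genotypes stand in opposite order with and without LPS. The means were 50.6 CPM (*Tut7*-/-) and 38.1 CPM (wild-type) with LPS and 100 CPM (*Tut7*-/-) and 190 CPM (wild-type) without. The call held in 8 of 16 alternatives, with adjusted p from 1.3e-04 to 0.21. It was lost when any single LPS-treated library of either genotype, or any single untreated wild-type library, was left out. Those fits leave 1 library in a group and called far fewer of all genes than the fit of all libraries. The call just missed with DESeq2's size factors (adjusted p = 0.053) or a minimum of 10 counts in each library (adjusted p = 0.051). In these 2 fits 2.1% and 2.19% of all genes were called in either direction, against 4.5%. It held at a smaller size with the length and GC correction (0.71, adjusted p = 0.049).

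*Tlr7* (0.96, 95% CI 0.33 to 1.6, adjusted p = 0.071), *Tlr3* (0.96, 95% CI 0.2 to 1.71, adjusted p = 0.12) and *Tlr8* (0.83, 95% CI 0.22 to 1.45, adjusted p = 0.099) had positive differences that did not pass. Without untreated *Tut7*-/- replicate 1 the genes called were *Tlr3*, *Tlr7*, *Tlr8* and *Tlr13*, and without replicate 2 *Tlr7*, *Tlr8*, *Tlr13* and *Unc93b1*, 4 in each case. Of all genes 6.43% were called without replicate 1 and 30.1% without replicate 2, against 4.5% with all libraries. With the correction they were at 0.25 for *Tlr7*, 0.23 for *Tlr3* and 0.03 for *Tlr8*. *Unc93b1* was at -0.58 (95% CI -1.2 to 0.03, adjusted p = 0.23). *Tlr1* (0.04), *Tlr2* (-0.21), *Tlr6* (0.53) and *Tlr9* (-0.49) had intervals that span 0.

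The remaining mouse receptors bear on the repertoire too. *Tlr4* stood at 63.4 and 56.1 CPM in LPS-treated and 46.3 and 36.9 CPM in untreated *Tut7*-/- libraries, and at 57.2 and 42.9 CPM with LPS and 67.1 and 55.8 CPM without in wild-type libraries. It passed in none of the 5 comparisons made here. *Tlr5*, the flagellin receptor, had 0 to 10 counts in a library, and *Tlr11* and *Tlr12*, which bind a profilin of apicomplexan parasites, had 0 to 9 and 0 to 1 counts. They were not tested.

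Genes that fold and carry the receptors moved in both directions with LPS, as did genes over the whole table. Of 11 tested, 5 rose and 5 fell in *Tut7*-/- and 3 rose and 4 fell in wild-type BMDMs, with a median of -0.31 in *Tut7*-/- and 0.32 in wild-type cells. Of all tested genes 34.8% rose and 33.2% fell in *Tut7*-/-, and 27.0% rose and 30.4% fell in wild-type cells. For this list and those below, the shares between untreated genotypes are 14.8% higher and 22.2% lower in *Tut7*-/-. Between genotypes with LPS, 1.4% of all genes were called, and for the difference of responses 4.5%. The 2 chaperones of the endoplasmic reticulum that many Toll-like receptors need went opposite ways. *Hsp90b1*, which encodes gp96, rose by a log2 fold change of 1.85 in *Tut7*-/- (adjusted p = 5.4e-06) and 0.83 in wild-type cells (adjusted p = 0.006), while its co-chaperone *Cnpy3* changed by -2.38 in *Tut7*-/- (adjusted p = 6.4e-07) and -2.14 in wild-type cells (adjusted p = 3.7e-06). *Ap3b1*, a subunit of the AP-3 complex that routes *Tlr9* to lysosome-related organelles, rose by 1.97 in *Tut7*-/- and 1.69 in wild-type cells. *Slc15a4*, an endolysosomal transporter needed for *Tlr7* and *Tlr9* signalling, changed by -1.89 in *Tut7*-/- and -1.46 in wild-type cells.

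*Rab7b*, a small GTPase that promotes the lysosomal degradation of *Tlr4* and *Tlr9*, was the one gene of this list called between genotypes with LPS. It averaged 55.1 CPM in LPS-treated and 140 CPM in untreated *Tut7*-/- cells, and 23.1 CPM in LPS-treated and 168 CPM in untreated wild-type cells. It was higher in *Tut7*-/- cells with LPS by 1.25 (SE 0.234, adjusted p = 0.014), and its LPS response differed by 1.51 (SE 0.316, adjusted p = 0.022). Its fall was shallower in *Tut7*-/- cells, as was that of *Tlr13*. The 2 genes differed without LPS, where *Rab7b* was not called between genotypes (-0.26, adjusted p = 0.34) and *Tlr13* was (-0.92, adjusted p = 0.004). Without LPS, 2 of the 11 were higher in *Tut7*-/- cells, *Hgs* (0.85) and *Lrrc59* (0.76), and 2 lower, *Hsp90b1* (-1.89, adjusted p = 2.5e-04) and *Sdcbp* (-0.7).

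The endosomal proteases include those that cut the nucleic acid sensors. Of 9 tested, 1 rose and 4 fell with LPS in *Tut7*-/- and 2 rose and 2 fell in wild-type BMDMs. The lysosomal aspartic protease *Ctsd* changed by -1.4 in *Tut7*-/- and -0.73 in wild-type cells, the asparagine endopeptidase *Lgmn* by -1.07 in *Tut7*-/- and -0.69 in wild-type cells, and the proprotein convertase *Furin* rose by 0.66 in *Tut7*-/- and 1.31 in wild-type cells. Without LPS, 5 of the 9 were higher in *Tut7*-/- cells, led by *Ctsd* (1.06, adjusted p = 0.0033), with *Lgmn* and *Ctsz* both at 0.82.

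Of 7 listed nucleases, not all of them endosomal, 4 rose and 3 fell with LPS in *Tut7*-/- and 4 rose and 2 fell in wild-type cells. *Trex1*, a DNA exonuclease, rose by 2.4 in *Tut7*-/- and 3.2 in wild-type cells, and *Dnase2a*, the lysosomal DNase, changed by -2.36 in *Tut7*-/- and -1.99 in wild-type cells. In untreated cells 3 of the 7 were higher in *Tut7*-/-, namely *Dnase2a* (0.87), *Trex1* (0.75) and the lysosomal exonuclease *Pld3* (0.58).

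Of 17 adaptors, kinases and interferon regulatory factors downstream of the receptors, 10 rose with LPS in each genotype, while 4 fell in *Tut7*-/- and 2 in wild-type cells. *Irf7*, the factor that drives interferon genes after *Tlr7* and *Tlr9*, rose by 3.27 in *Tut7*-/- and 3.77 in wild-type cells, and the kinase *Ikbke* by 2.95 in *Tut7*-/- and 2.82 in wild-type cells. The kinase *Tbk1* rose by 3.31 in *Tut7*-/- and 1.93 in wild-type cells, and this difference passed the test (1.37, SE 0.346, adjusted p = 0.04). Without LPS *Tbk1* was lower in *Tut7*-/- cells (-1.28, adjusted p = 0.002), and so was *Ticam2* (-0.74), while *Ticam1*, which encodes Trif, was higher (0.83), as was *Irf7* (0.8).

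Among 7 tested genes of co-receptors and of proteins that bind ligands, such as *Hmgb1*, 3 rose in each genotype with LPS. In *Tut7*-/- cells 2 fell and in wild-type cells 3. *Cd14*, which helps *Tlr2* as well as *Tlr4*, rose by 1.5 in *Tut7*-/- and 2.38 in wild-type cells. *Cd36*, a scavenger receptor that assists the *Tlr2* and *Tlr6* pair, rose by 1.9 in *Tut7*-/- and 0.61 in wild-type cells, and that difference passed (1.29, SE 0.313, adjusted p = 0.035). Without LPS *Cd36* (-1.53), *Hmgb1* (-1.17) and *Itgav* (-1.15) were lower and *Cd14* (0.77) was higher in *Tut7*-/- cells.

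The genes whose levels followed each of the 9 most closely over the 8 libraries were taken by Pearson's r of log2(CPM + 1), as a description, since all 8 libraries share the LPS effect. *Tlr3* was closest to *Herc6* (r = 0.9995) and *Setdb2* (0.9991), *Tlr1* to *Gbp4* (0.9998), *Tlr2* to *Ifi205* (0.9996) and *Tlr6* to *H2-Q5* (0.9988) and *Oas1b* (0.9984). *Tlr7* was closest to *Usp15* (0.999) and *Kpna4* (0.9986), and *Tlr8* to *Capza1* (0.9974). *Tlr13* was nearest to *F630028O10Rik* (0.9945) and *Lonrf3* (0.9926), both lower with LPS in mean level in each genotype. *Lonrf3*, for example, averaged 7.39 CPM with LPS and 14.4 CPM without in *Tut7*-/- cells, and 4.42 CPM with LPS and 34.6 CPM without in wild-type cells. *Unc93b1* followed *Ranbp3* (0.9953) and *Arpc1b* (0.9918), and *Tlr9* had the loosest match, *Zswim8* (0.9758).

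Some of these receptors are also known from other immune cells, *Tlr7* and *Tlr9* from B cells and plasmacytoid dendritic cells and *Tlr3* from conventional dendritic cells. The 5 B cell markers in the table summed to at most 3.3 CPM in any library, with *Pax5* at 0 in all. The 6 plasmacytoid markers summed to 2.61 to 4.27 CPM with LPS and 0.266 to 0.369 CPM without in *Tut7*-/- libraries, and to 0.87 to 3.93 CPM with LPS and 0.263 to 0.55 CPM without in wild-type libraries, with *Siglech* and *Ly6d* at 0 in all. The 6 markers of conventional dendritic cells summed to 14.1 to 16.1 CPM with LPS and 0.369 to 1.06 CPM without in *Tut7*-/- libraries, and to 19.7 to 23.9 CPM with LPS and 1.14 to 1.87 CPM without in wild-type libraries. *Xcr1* averaged 13.5 CPM with LPS and 0.0443 CPM without in *Tut7*-/- libraries, and 18.3 CPM with LPS and 0.253 CPM without in wild-type libraries. Both dendritic cell sums were higher with LPS, as *Tlr3* and *Tlr7* were, but the rise lay mostly in *Xcr1* and *Ccr9*. The other conventional markers had at most 21 counts in a library and no common direction. *Ccr9* had 17 and 14 counts in LPS-treated *Tut7*-/-, 1 and 7 in LPS-treated wild-type and 0 in all untreated libraries. The other plasmacytoid markers had at most 6 counts in a library. The part of such cells in the result was not tested. The neutrophil markers summed to at most 3.84 CPM and the T and NK cell markers to at most 0.55 CPM.

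Some macrophage and stromal markers differed between the genotypes. The 8 macrophage markers summed to 19200 to 21100 CPM with LPS and 27900 to 40800 CPM without in *Tut7*-/- libraries, and to 15700 CPM in both LPS-treated and 20400 to 20800 CPM in untreated wild-type libraries. Without LPS 4 of the 8 were higher in *Tut7*-/- cells, *C1qa* (1.48), *Lyz2* (0.81), *Csf1r* (0.72) and *Fcgr1* (0.7), while with LPS the lowest adjusted p of the 8 was 0.054. The 4 differed in the direction of *Unc93b1* and opposite to *Tlr3*, *Tlr7*, *Tlr8* and *Tlr13*. The counts of partner and marker genes rest on TMM scaling and were not computed with the length and GC correction. The 7 stromal markers summed to 11.5 to 12.5 CPM with LPS and 22.7 to 23.0 CPM without in *Tut7*-/- libraries, and to 68.5 to 74.8 CPM with LPS and 62.6 to 71.1 CPM without in wild-type libraries. The part of either in the receptor differences was not tested.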

How the data were processed

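Poly(A) RNA of 8 BMDM libraries, 2 for each of 4 groups named by the sample titles, was read in pairs of 75 nt according to the study's methods. FANSe3 was used by the authors to align them to the mouse RefSeq transcripts of mm10, and raw read counts and RPKM of 24539 gene symbols were deposited. The submitters' processing notes name edgeR. The dose of LPS was taken from the study's text. A second sheet repeats the deposited RPKM and was not used, and no column was left unmapped.

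The count analysis used edgeR 4.0.16 under R 4.3.3 (filterByExpr, TMM, robust quasi-likelihood fit of all 8 libraries with 1 coefficient per group, 4 residual degrees of freedom, biological coefficient of variation 18.5%). The threshold for a call was 0.05 after Benjamini-Hochberg adjustment. Intervals are 95% intervals from the moderated degrees of freedom. Totals of 3767900 to 9394632 counts set the precision. The pipeline was tested on simulated data.

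The 9 genes and the gene lists were chosen with earlier results of these data known. Beside the 9 genes, the text names *Tut7*, at most 4 called genes per list and comparison with the largest fold changes, and the 2 genes most like each of the 9. Beyond this rule, *Tlr4*, *Tlr5*, *Tlr11* and *Tlr12* complete the family, and markers of other cell types that are at 0 are named.

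The alternatives concerned scaling (size factors from DESeq2, or library size with no TMM), the tool (DESeq2 1.42.0 with its Wald test, or limma 3.58.1 on log2(RPKM + 1)), the filter (none, or a minimum of 10 counts in each library), and the design (the replicate number as a block, a fit of just the 4 libraries compared, or leaving out each library in turn). Added after the data were seen were a fit without both untreated *Tut7*-/- libraries, a crossed replicate block, and a correction for length and GC content (11430 genes). The correction used, per library, a natural spline with 5 degrees of freedom for GC content and another for log length. They were fitted to each library's departure from the gene's mean over all 8 libraries. Python 3.11.15 with matplotlib 3.10.9 drew the figures.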

Additional observations from a re-analysis of the deposited data

Results flagged for a closer look

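The LPS response of *Tlr13* differed between the genotypes by a test of the difference itself. It was 1.33 higher on the log2 scale in *Tut7*-/- than in wild-type BMDMs (SE 0.298, adjusted p = 0.025 by edgeR), with a fall of -0.98 in *Tut7*-/- and -2.32 in wild-type cells. The difference was positive in all 16 alternatives (0.71 to 1.59) and was called in 8 of them. Groups of 2 libraries are too small for a test of single outlying libraries.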

How the results depend on the processing

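For LPS, 7 to 9 of the 9 genes were called in every alternative, against 7 in each genotype. The fit of all libraries called 68.0% of all genes for LPS in *Tut7*-/- and 57.4% in wild-type cells. Between genotypes with LPS, 2 genes were called in the fit of only the 4 libraries (14.9% of all genes) and 1 with the length and GC correction (5.62%), against 0 (1.4%). Between untreated genotypes, 0 were called with the correction, against 5. For the difference of responses, 1 gene was called (4.5% of all genes), against 0 with DESeq2's size factors (2.1%) and 0 with at least 10 counts in every library (2.19%). There were 2 with no filter (8.75%), 3 with library size (5.29%) and 3 with limma (11.5%). Leaving out single libraries also changed this count. The cause was not tested. Over all settings, values of single genes kept direction and side of the threshold in 708 cases, came to pass in 26, ceased to pass in 19 and changed sign in 30.

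Signs changed as follows, in log2. With library size, LPS in wild-type cells gave -0.62 for *Tlr9* and -0.67 for *Unc93b1*, and the difference of responses gave 0.08 for *Tlr2*. With limma these were -0.43 for *Tlr9*, -0.66 for *Unc93b1* and 0.09 for *Tlr2*. With the length and GC correction, LPS in *Tut7*-/- cells gave 0.72 for *Tlr9* and 0.76 for *Unc93b1*, genotype with LPS gave 0.02 for *Tlr3*, 0.03 for *Tlr7* and 0.19 for *Tlr8*, untreated genotype gave 0.13 for *Tlr1*, 0.16 for *Tlr8* and -0.05 for *Unc93b1*, and the difference of responses gave -0.41 for *Tlr1* and 0.07 for *Unc93b1*. With DESeq2, by size factors and by the Wald test alike, untreated *Tlr2* was 0.04 and the difference for *Tlr1* was -0.11, and with at least 10 counts that difference was -0.07. Leaving out each library in turn gave ranges that cross 0 of -0.27 to 1.01 for *Tlr9* with LPS in wild-type cells, -0.31 to 0.05 for *Tlr8* between genotypes with LPS, -0.15 to 0.08 for *Tlr2* and -0.64 to 0.02 for *Tlr6* between untreated genotypes, and -0.07 to 0.12 for *Tlr1* and -1.27 to 0.01 for *Tlr9* in the difference of responses.

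The replicate numbers were not shown to pair the libraries, since the correlations of the replicate differences between groups ran from -0.198 to 0.31. With the replicate number as a block, 7 genes were called for LPS in each genotype (68.3% of all genes in *Tut7*-/-, 57.7% in wild-type cells). Between genotypes 0 were called with LPS (1.54%) and 6 without (38.3%), where *Tlr9* was added (0.79, adjusted p = 0.03). For the difference of responses 1 was called (5.09%). A crossed pairing of the *Tut7*-/- libraries, chosen after the data were seen, called 7 for LPS in *Tut7*-/- cells. Counts limit the untreated levels of *Tlr3*, with 34 to 89 in a library, and of *Tlr6*, with 47 to 115.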
